A study of Mus musculus with 34 samples.

Results

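The genes described here are 10 transcripts typical of fibroblasts and of the connective tissue of the meninges: Col1a1, Col1a2, Col3a1, Dcn, Lum, Ogn, Igf2, Islr, Mgp and Fn1. They were chosen by symbol, and all 10 were found among the 23951 genes listed for every library. In the brain, fibroblasts lie in the meninges, along larger vessels and in the stroma of the choroid plexus, where they lay down a matrix of collagens bound by small proteoglycans. The epithelium of the choroid plexus, which makes cerebrospinal fluid and secretes the thyroid hormone carrier transthyretin (Ttr), is a different cell layer resting on that stroma. Igf2, a growth factor expressed from the paternal allele in most tissues, is known in the adult brain mainly from the choroid plexus and the leptomeninges.

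RNA-seq libraries of hippocampus came from 4 control mice (Hdac1f/f), 5 Hdac1 cKO mice (Hdac1f/f, Nestin-Cre), 6 5XFAD mice (Hdac1f/f, 5XFAD) and 5 compound mice (Hdac1f/f, Nestin-Cre, 5XFAD), 1 library per mouse, so that the loxP-flanked Hdac1 allele was common to all groups. A second set held GFAP+ nuclei sorted from cortex of 3 Hdac1f/f and 4 Hdac1f/f, Nestin-Cre mice. The mice were males of the aged group, and the labels of control and Hdac1 cKO hippocampus give 13 to 14 months, and those of 5XFAD and compound hippocampus 13 months. Nestin-Cre acts in neural progenitors, from which neurons, astrocytes, ependyma and choroid plexus epithelium descend, whereas fibroblasts are of mesenchymal or neural crest origin. 5XFAD mice are a transgenic model of amyloid deposition whose transgenes are driven by the neuronal Thy1 promoter. The questions asked of the stroma genes were whether they differed between these groups, and whether they rose and fell with Ttr from library to library.

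Relative to 1 library of each set, the estimated depth was 0.753 to 2.36 in hippocampus (20 libraries) and 0.868 to 1.26 in nuclei (7 libraries). The labels could be checked on Hdac1, which was at 2.36 to 3.03 FPKM in Hdac1 cKO and 1.15 to 2.52 FPKM in compound hippocampus, below every control (5.91 to 10.7 FPKM) and every 5XFAD library (6.10 to 9.64 FPKM). In the nuclei the ranges overlapped, 5.80 to 11.5 FPKM in cKO and 9.91 to 22.3 FPKM in controls. No library stood apart across all genes, but Ttr spanned 53.8 to 20146 FPKM over the hippocampal libraries, with 10 of 20 below 300 FPKM. Control 1, at 576 FPKM, was far below controls 2, 3 and 4 at 17485, 20146 and 12903 FPKM. Control 1 was singled out for its low Ttr. It was also the lowest control for Igf2 (5.45 FPKM) and Islr (1.62 FPKM), so leaving it out could only widen any fall of theirs. Counts against controls are also given without it. No share of all genes is given for those fits, so such counts do not show whether other genes moved as much.

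All levels are FPKM, fragment counts scaled to transcript length and to the mapped fragments of the library. The hippocampal libraries read only the 3′ ends of transcripts, so an order of genes by FPKM is approximate there. By the median of the 20 hippocampal libraries the stroma genes ran from Dcn at 55.3 FPKM (29.8 to 76.3) and Mgp at 41.7 FPKM (18 to 139), through Igf2 at 7.89 FPKM (4.17 to 53.3) and Ogn at 6.54 FPKM (0.410 to 18.5), to Lum at 2.03 FPKM (1.5 to 5.84) and Islr at 1.99 FPKM (0.903 to 5.06). Fn1 had a median of 1.49 FPKM (0.779 to 2.84) and Col1a2 of 0.885 FPKM (0.335 to 2.62). Col1a1 reached at most 0.595 FPKM and Col3a1 at most 0.487 FPKM. Each range overlapped that of its neighbour in this order. A gene entered a comparison only if its libraries averaged 0.5 FPKM or more, so 8 of the 10 stroma genes were tested in the hippocampus. Col1a1 and Col3a1 were not.

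**Figure D1:**
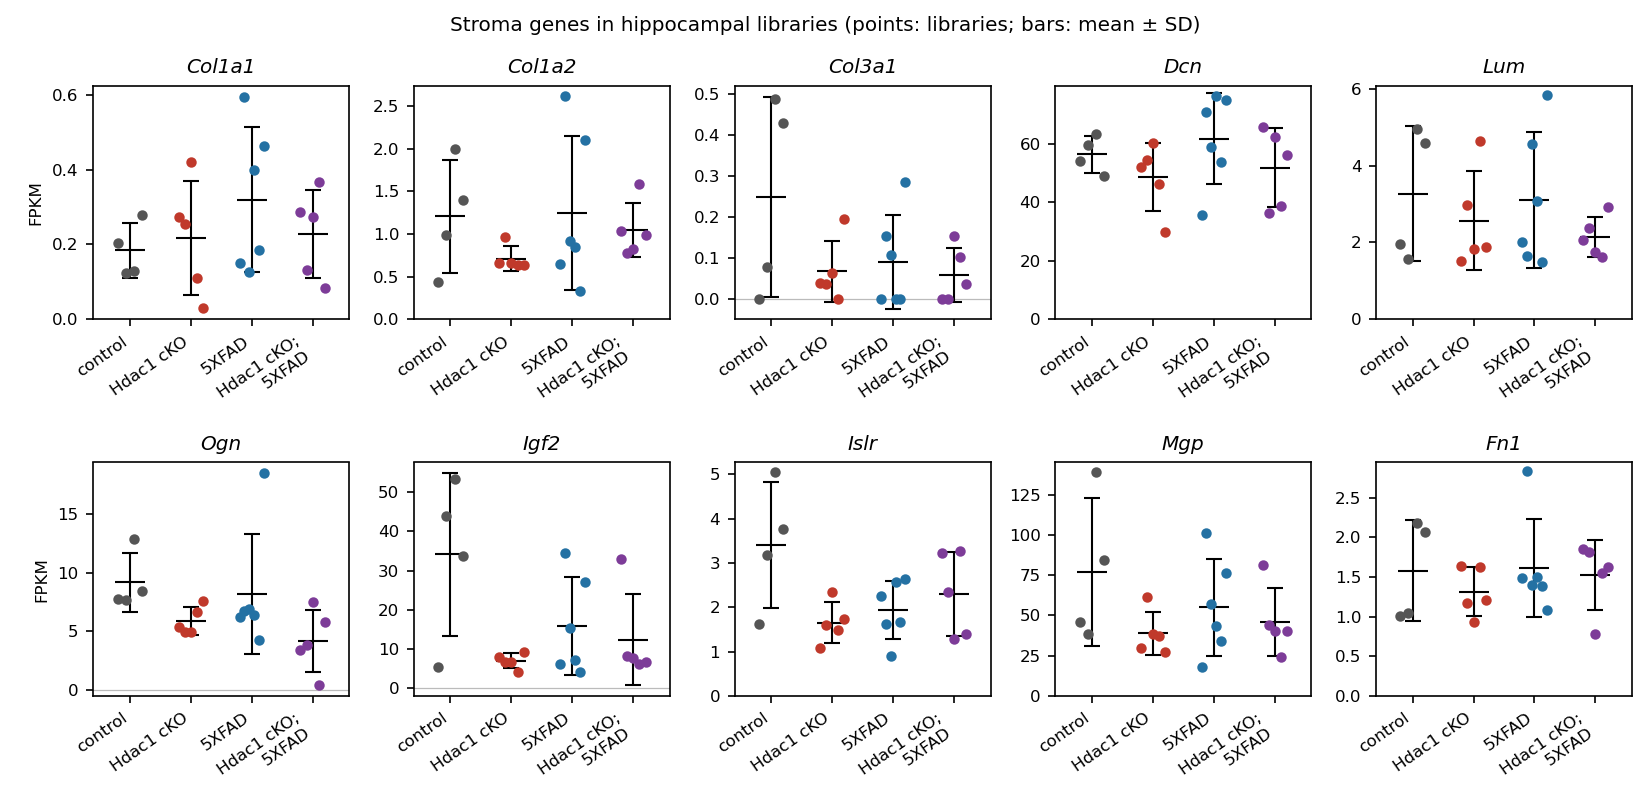
FPKM of the 10 stroma genes in each hippocampal library of the 4 groups; points are libraries and bars the mean ± SD, each panel with its own linear axis. Igf2 lies between 33.8 and 53.3 FPKM in 3 of 4 control libraries and at most 9.31 FPKM in all 5 Hdac1 cKO libraries, while Dcn overlaps across all groups.

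The fibrillar collagens are the structural core of the fibroblast matrix. Col1a1 (chr11:94797538-94814356 on mm9) and Col1a2 (chr6:4454814-4491543) encode the chains of type I collagen, and Col3a1 (chr1:45368383-45406551) that of type III. Col1a2 was at 0.435, 0.992, 2.00 and 1.40 FPKM in controls 1 to 4 and at 0.660, 0.967, 0.659, 0.632 and 0.634 FPKM in Hdac1 cKO mice 1 to 5. In 5XFAD mice it ranged from 0.335 to 2.62 FPKM around a median of 0.885 FPKM, and in compound mice it was at 1.04, 0.781, 0.824, 1.58 and 0.993 FPKM. All 4 groups overlapped, and the log2 fold changes against controls, -0.32, -0.013 and -0.071, were each smaller than 2 standard errors. Col1a1 was at 0.125 to 0.279 FPKM in controls, 0.029 to 0.419 in Hdac1 cKO, 0.127 to 0.595 in 5XFAD and 0.084 to 0.366 FPKM in compound mice. Col3a1 was listed at 0 in 7 of the 20 libraries, and its highest values were those of control 3 (0.487 FPKM) and control 4 (0.429 FPKM). For these last 2 genes the smallest p in any hippocampal comparison was 0.198, by a two-sided exact permutation test of single genes.

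Dcn, Lum and Ogn encode decorin, lumican and osteoglycin (mimecan), small leucine-rich proteoglycans that bind collagen fibrils and set their spacing. Dcn (chr10:96942245-96980777 on mm9) and Lum (chr10:97028135-97035337) lie side by side on chromosome 10, and Ogn (chr13:49703440-49719869) on chromosome 13. Dcn differed little between groups, with control mice at 56.4 ± 6.29 FPKM (SD, n = 4), Hdac1 cKO mice at 48.5 ± 11.6 FPKM (SD, n = 5), 5XFAD mice at 61.7 ± 15.6 FPKM (SD, n = 6) and compound mice at 51.8 ± 13.5 FPKM (SD, n = 5). The 95% interval of its log2 fold change in Hdac1 cKO ran from -0.62 to 0.14. Lum was at 1.97, 1.57, 4.96 and 4.58 FPKM in controls and reached 5.84 FPKM in 5XFAD mouse 6 and 4.65 FPKM in Hdac1 cKO mouse 4, and the 95% interval of each group difference included 0.

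Ogn was at 7.74, 7.67, 12.9 and 8.41 FPKM in controls 1 to 4 and at 5.41, 4.91, 4.91, 6.68 and 7.59 FPKM in Hdac1 cKO mice. Every Hdac1 cKO library was therefore below every control, which held for 2.15% of all genes tested. The log2 fold change was -0.55 (SE 0.17), short of the 1.5-fold asked of a call, with p = 0.00747 and adjusted p = 0.23 in limma and an exact permutation p of 0.0159. It passed 1.5-fold without control 1 (-0.61), control 2 (-0.62), Hdac1 cKO mouse 4 (-0.59) or Hdac1 cKO mouse 5 (-0.63). In compound mice Ogn was at 3.44, 3.81, 7.49, 0.410 and 5.81 FPKM, again below every control, and in 5XFAD mice it ranged from 4.25 to 18.5 FPKM around a median of 6.59 FPKM. Against controls it fell by 1.17 on the log2 scale in compound mice (SE 0.46, limma p = 0.0308, adjusted p = 0.409; exact permutation p = 0.0397), the one stroma gene called there. This call was lost, with log2 fold changes of -1.01, -1.19, -1.17 and -1.19, without control 3, control 4, compound mouse 1 or compound mouse 2. Without compound mouse 4, the library at 0.410 FPKM, the call held at a smaller change of -0.75. Against 5XFAD mice the log2 fold change of Ogn in compound mice was -0.91 (95% interval -1.91 to 0.092), and it passed the call thresholds only without compound mouse 3 (-1.14) or with all 4 groups in 1 fit, and was -0.49 without compound mouse 4.

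Igf2 (chr7:149836673-149852721 on mm9, minus strand) differed most in size from controls. It was at 5.45, 43.8, 53.3 and 33.8 FPKM in controls 1 to 4. In Hdac1 cKO mice 1 to 5 it was at 8.07, 6.85, 6.68, 4.24 and 9.31 FPKM. In 5XFAD mice it ranged from 4.17 to 34.4 FPKM around a median of 11.3 FPKM, and in compound mice it was at 33.0, 8.25, 7.70, 6.21 and 6.76 FPKM. Igf2 was thus high in 3 controls, in 5XFAD mice 2 and 6 and in compound mouse 1, and low in control 1 and in every Hdac1 cKO library. In Hdac1 cKO it fell by 1.79 on the log2 scale (SE 0.63, limma p = 0.0222, adjusted p = 0.323; exact permutation p = 0.0476). The groups overlapped through control 1. Without control 2, control 3, control 4 or Hdac1 cKO mouse 4 the log2 fold change was -1.55, -1.46, -1.68 or -1.65 and no longer passed p under 0.05. Without control 1 it was -2.49, with a limma adjusted p of 8.46e-05. In 5XFAD and compound mice the log2 fold changes against controls were -1.05 (95% interval -2.85 to 0.75) and -1.32 (-3.08 to 0.44). Without control 1 both passed, at -1.74 and -2.01, and without compound mouse 1 the latter passed at -1.73.

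Islr (chr9:58004080-58006949 on mm9, minus strand), also called meflin, encodes a cell-surface and secreted protein with leucine-rich repeats that marks fibroblastic stromal cells. It was at 1.62, 3.18, 5.06 and 3.76 FPKM in controls and at 1.08, 1.60, 2.35, 1.48 and 1.74 FPKM in Hdac1 cKO mice, overlapping again only through control 1. It fell by 0.69 on the log2 scale (SE 0.23, limma p = 0.0113, adjusted p = 0.263; exact permutation p = 0.0476), a call lost without control 3 (-0.51). In 5XFAD mice it ranged from 0.903 to 2.63 FPKM around a median of 1.95 FPKM, with a log2 fold change of -0.55 (SE 0.24, limma p = 0.0393; exact permutation p = 0.0952) that was too small for a call. It passed without control 1 (-0.78) or without 5XFAD mouse 1 (-0.59), 4 (-0.62) or 6 (-0.62). In compound mice it was at 3.23, 2.35, 1.29, 3.26 and 1.40 FPKM, not different from controls (-0.40, 95% interval -1.0 to 0.20) unless control 1 was left out (-0.63).

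Mgp (chr6:136820957-136824326 on mm9, minus strand) encodes matrix Gla protein, an inhibitor of calcification made by fibroblasts and vessel wall cells, and Fn1 (chr1:71632094-71699774, minus strand) fibronectin, an adhesive matrix protein made by fibroblasts and vascular cells. Mgp was at 45.7, 38.5, 139 and 84.5 FPKM in controls and 29.9, 61.2, 38.5, 37.3 and 27.0 FPKM in Hdac1 cKO mice. The difference of -0.84 (SE 0.41, limma p = 0.0732, adjusted p = 0.483, exact permutation p = 0.0952) was not called, with a 95% interval of -1.79 to 0.10. It passed without control 2 (-1.11) or Hdac1 cKO mouse 2 (-1.02), or in limma without trend and robust options (-0.84). Without control 3 it was -0.50. Fn1 ranged from 0.779 to 2.84 FPKM over all groups, and its log2 fold changes lay between -0.13 and 0.025 in the 4 hippocampal comparisons.

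Promoter windows of the 3 stroma genes called in a group comparison are shown because they are the regulatory sequence in reach of those results. They give the 150 bases before each RefSeq start on GRCm38.p6, 5′ to 3′ on the gene's strand, with capitals marking the TATA box letters TATAAA, the box CCAAT and the GC box letters GGGCGG on either strand. The RefSeq promoter table held 5 of the 10 genes. Igf2 had 4 starts, and Islr and Ogn 1 each.
Igf2, chr7:142657497-142657646, minus strand: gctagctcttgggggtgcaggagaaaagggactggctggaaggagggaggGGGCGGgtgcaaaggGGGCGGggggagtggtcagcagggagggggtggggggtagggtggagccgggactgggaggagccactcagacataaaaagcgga
Igf2, chr7:142658805-142658954, minus strand: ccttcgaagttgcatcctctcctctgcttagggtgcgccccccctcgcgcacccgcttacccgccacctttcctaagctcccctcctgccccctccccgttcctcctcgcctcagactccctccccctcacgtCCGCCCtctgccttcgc
Igf2, chr7:142661272-142661421, minus strand: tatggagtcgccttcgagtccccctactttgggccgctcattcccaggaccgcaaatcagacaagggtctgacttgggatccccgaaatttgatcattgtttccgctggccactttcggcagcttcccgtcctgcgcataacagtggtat
Igf2, chr7:142666817-142666966, minus strand: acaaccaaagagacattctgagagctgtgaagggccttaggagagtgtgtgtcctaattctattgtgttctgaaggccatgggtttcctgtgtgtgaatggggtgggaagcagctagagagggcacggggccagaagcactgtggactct
Islr, chr9:58158555-58158704, minus strand: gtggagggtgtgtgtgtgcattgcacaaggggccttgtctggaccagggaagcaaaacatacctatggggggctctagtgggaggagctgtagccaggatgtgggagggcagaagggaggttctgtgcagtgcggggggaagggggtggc
Ogn, chr13:49607865-49608014, plus strand: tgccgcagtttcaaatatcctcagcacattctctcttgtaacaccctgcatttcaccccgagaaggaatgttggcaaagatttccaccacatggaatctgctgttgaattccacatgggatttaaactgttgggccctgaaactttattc
GGGCGG, the letters of a GC box, was found at 85 and 100 bases before the Igf2 start farthest downstream and, on the opposite strand, 17 bases before the next. It was found in 28.6% of the 32851 windows of this length in the table. Neither of the other motifs was in these 6 windows. CCAAT was found 109 bases before the Col1a2 start (24.5% of all windows) and TATAAA 117 bases before the Col3a1 start (7.57% of all windows). These matches are descriptions of letters only. Guanine and cytosine made up 66.7%, 68.0%, 54.7% and 52.0% of the 4 Igf2 windows in the order shown, 61.3% of that of Islr and 44.0% of that of Ogn, against a median of 54.0% over all windows.

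Counted over the list, 2 of the 8 stroma genes tested (Igf2 and Islr) fell in Hdac1 cKO hippocampus by the thresholds of the study, at least 1.5-fold with p under 0.05 before adjustment. Of all 14265 genes tested 2.87% were called lower. No test was made of the list as such. All 8 log2 fold changes were negative, with a median of -0.43 against -0.001 over all genes. In 5XFAD mice 0 of 8 were called (1.23% of all genes were called lower) and the median was -0.16. In compound mice 1 of 8, Ogn, was called lower against controls (2.02% of all genes), with a median of -0.38. Against 5XFAD mice 0 of 8 were called (0.593% of all genes were called lower), with a median of -0.21. These comparisons share their control or 5XFAD libraries and are not independent of each other. The labels also name the source of 5XFAD and compound hippocampus differently from that of controls. An effect of 5XFAD against controls, here and below, cannot be told apart from one that came with that source. Without control 1 the counts against controls became 3, 2 and 3 of 8, with medians of -0.56, -0.26 and -0.57. Without control 3 the counts were 0, 0 and 0, and without control 4 they were 1, 0 and 0. No share of all genes is given for these fits.

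**Figure D2:**
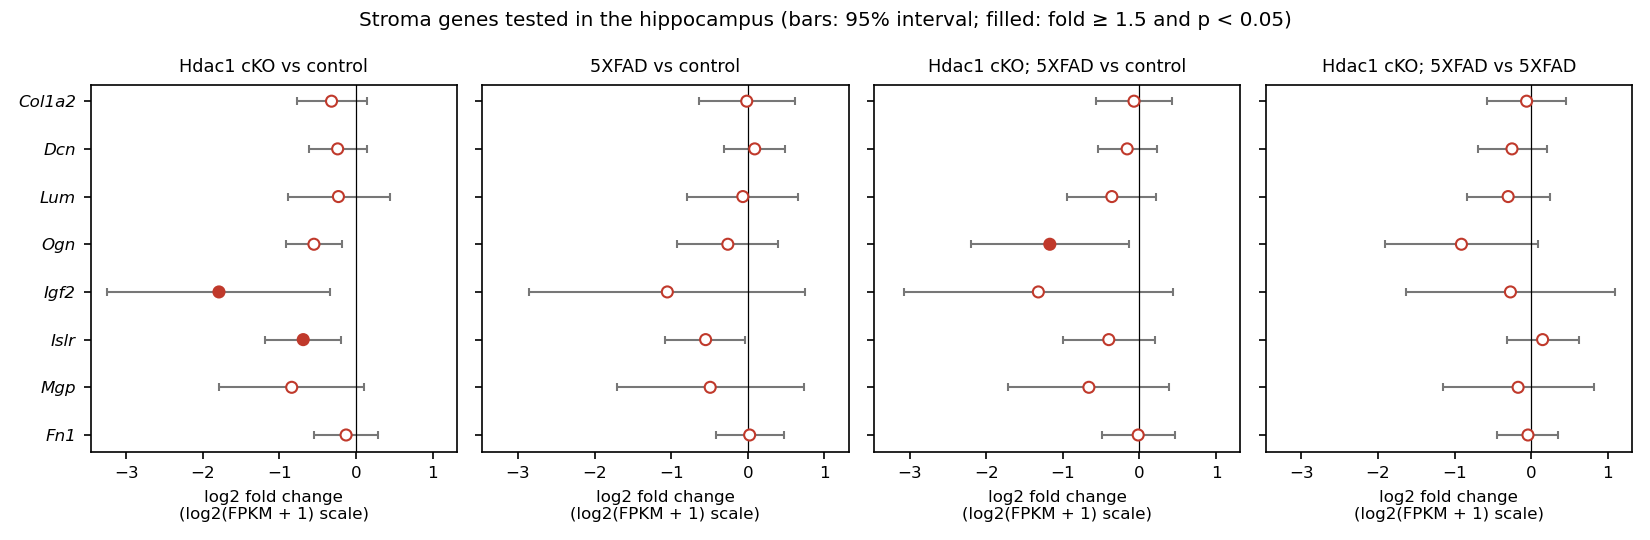
Log2 fold change on the log2(FPKM + 1) scale of the 8 stroma genes tested in 4 hippocampal comparisons; bars are 95% intervals from limma and filled points passed 1.5-fold and p under 0.05. Igf2 and Islr are filled for Hdac1 cKO against control and Ogn for compound against control mice, and the intervals of Igf2 are the widest.

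After adjustment over all genes none of the 8 passed 0.05 in any of the 4 hippocampal comparisons, where 0.154%, 0.708%, 0.662% and 0.00698% of all genes did, in the order above. Without control 1, Igf2 (-2.49, limma adjusted p = 8.46e-05) and Islr (-0.92, limma adjusted p = 0.0314) passed in Hdac1 cKO, and no other library left out gave a stroma gene an adjusted p under 0.05 in a group comparison. Control 1 was the lowest control for both genes, so leaving it out could only widen both falls and gives no independent support for them. By the unadjusted limma p alone, 3 of 8 passed 0.05 in Hdac1 cKO (Ogn, Igf2 and Islr), 1 in 5XFAD (Islr), 1 in compound mice against controls (Ogn) and 0 against 5XFAD, where 11.7%, 10.7%, 10.5% and 6.61% of all genes did. A count of 1 of 8 is near that background. The interaction, whether Hdac1 loss acted differently with and without 5XFAD, was called for 0 of 8 and for 0% of all genes. Islr had the smallest p: its change with Hdac1 loss was -0.69 without 5XFAD and 0.15 with it, a difference of 0.84 (SE 0.33, limma adjusted p = 0.473).

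Stroma genes were then set against Ttr across the 20 hippocampal libraries, within groups. Tissue RNA cannot tell fewer cells of a type from less RNA per cell. Ttr itself was at 576 to 20146 FPKM in controls, 56.5 to 1608 in Hdac1 cKO, 53.8 to 7892 in 5XFAD and 58.9 to 13910 FPKM in compound mice. The other markers of choroid plexus epithelium moved with it. All 15 of those tested had a positive slope on Ttr with adjusted p under 0.05, from 0.19 to 0.75 log2 units per log2 unit of Ttr, among them Enpp2, the autotaxin gene, at 0.45. The summed level of the 16 epithelium genes was 674 to 21573 FPKM in controls, 106 to 1730 in Hdac1 cKO, 105 to 8401 in 5XFAD and 106 to 14550 FPKM in compound mice, and none was at 0 throughout a group. Of these 16 genes 16 fell in Hdac1 cKO against control mice and 10 in compound mice, with 0 called in 5XFAD mice (2.87%, 2.02% and 1.23% of all genes were called lower). After adjustment over all genes 0 of 16 passed in each of these comparisons. Without control 1 the unadjusted counts were 16, 16 and 13.

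Of the 8 stroma genes 1, Igf2, rose with Ttr at an adjusted p under 0.05, as 0.626% of all genes did. Its slope was 0.31 log2 units per log2 unit of Ttr (95% interval 0.22 to 0.41, limma adjusted p = 0.0012). After centring each group, Pearson's r was 0.85 (permutation p = 5e-05, adjusted over all 14388 genes 0.024) and Spearman's rho 0.84 (permutation p = 7e-05), with r positive in each of the 4 groups. Without the 2 libraries farthest from the median of the group-centred log2 Ttr, compound mouse 1 and 5XFAD mouse 5, r was 0.76. The libraries below 300 FPKM of Ttr all had Igf2 between 4.17 and 8.25 FPKM, and the 7 libraries with Ttr at 5554 FPKM or more had 15.5 to 53.3 FPKM. Control 1, Hdac1 cKO mouse 5 and 5XFAD mouse 1, with Ttr at 576, 1608 and 3058 FPKM, had Igf2 at 5.45, 9.31 and 6.34 FPKM. With log2 Ttr as a covariate the log2 fold change of Igf2 was 0.29 in Hdac1 cKO and 0.34 in compound mice against controls. None of the 8 genes was called in either comparison, where 695 of 14265 and 707 of 14348 genes were. The log2 fold change of Ogn in compound mice, the call lost there, was -1.25 with the covariate and -1.17 without it. Whether epithelium in the dissection accounts for the calls without the covariate was not tested, since group and Ttr are themselves related.

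**Figure D3:**
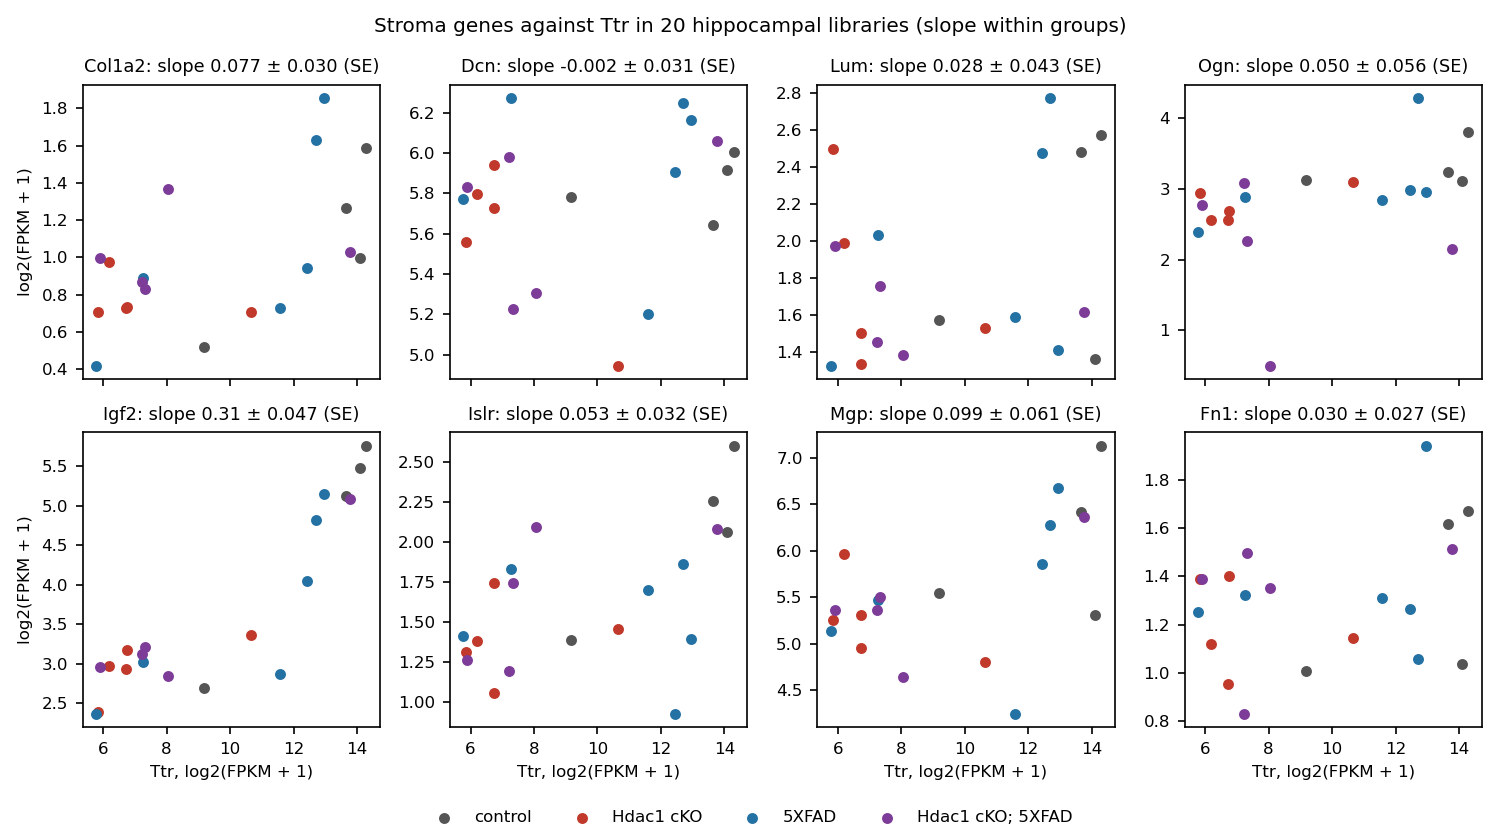
Each of the 8 stroma genes tested against Ttr in the 20 hippocampal libraries, both as log2(FPKM + 1), coloured by group, with the slope within groups ± SE in the panel title. Igf2 climbs at high Ttr, with a slope of 0.31, while Dcn has a slope of -0.002 and scatters at every level of Ttr.

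The other 7 slopes lay between -0.002 (Dcn) and 0.099 (Mgp) and none passed adjustment. That of Col1a2 was 0.077 (95% interval 0.013 to 0.14, limma p = 0.0199, adjusted p = 0.514), with r = 0.54 (permutation p = 0.0356) and rho = 0.57 (permutation p = 0.0228). The intervals of Dcn (-0.068 to 0.064), Lum (-0.062 to 0.12), Ogn (-0.067 to 0.17), Islr (-0.015 to 0.12), Mgp (-0.030 to 0.23) and Fn1 (-0.025 to 0.086) all lay below the 0.31 of Igf2. The interval of Igf2 itself, 0.22 to 0.41, overlapped that of Mgp, and no test of a difference between slopes was made.

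Single libraries show where the remaining stroma genes moved with Ttr and where they did not. Controls 2 and 3 had similar Ttr, 17485 and 20146 FPKM, and similar Igf2, 43.8 and 53.3 FPKM. Control 3 nevertheless held the highest value of 9 of the 10 stroma genes among controls, control 2 the lowest of 4 and control 1, with the least Ttr, the lowest of 5. Mgp was at 38.5 FPKM in control 2 and 139 in control 3, Lum at 1.57 and 4.96 FPKM, and Col3a1 at 0.0783 and 0.487 FPKM. Other genes of meningeal fibroblasts, chosen for this comparison after their values were seen, did so unevenly. Slc6a13, a GABA and taurine transporter, was at 0.216 FPKM in control 2 and 1.34 in control 3, and Aldh1a2, which makes retinoic acid, at 0.204 and 1.83 FPKM. Slc13a4 differed less, at 10.7 and 14.6 FPKM, and was at 1.81 FPKM in control 1. Pcolce was at 18.3 and 37.1 FPKM, with 3.90 FPKM in control 1, and Gjb6, a connexin shared with astrocytes, at 35.4 and 35.7 FPKM. In 5XFAD mouse 4, with Ttr at 153 FPKM, Dcn reached its highest value of the study, 76.3 FPKM, while Igf2 stood at 7.16 FPKM. Compound mouse 1, with Ttr at 13910 FPKM, had the highest Igf2 (33.0 FPKM), Mgp (81.2 FPKM), Dcn (65.7 FPKM) and Fn1 (1.85 FPKM) of its group, but not the highest Ogn (3.44 FPKM) or Lum (2.06 FPKM).

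5XFAD mice 2 and 6 differed from the rest of their group in several stroma genes. Col1a2 was at 2.62 and 2.10 FPKM in them, the highest values of the 20 libraries, and Aldh1a2 at 4.69 and 3.16 FPKM and Slc6a13 at 2.85 and 3.49 FPKM were the highest as well. Ttr in these mice, 7892 and 6617 FPKM, was the highest of the 5XFAD group and below that of 3 controls, and the correlation of Col1a2 with Ttr within the 6 5XFAD libraries was r = 0.72 (exact permutation p = 0.0917). Igf2 (34.4 and 27.2 FPKM), Mgp (101 and 76.6 FPKM), Col1a1 (0.595 and 0.462 FPKM) and Col3a1 (0.153 and 0.284 FPKM) were likewise highest of the 5XFAD group in these 2 mice. Ogn and Lum were high in mouse 6 (18.5 and 5.84 FPKM) and not in mouse 2 (6.78 and 1.65 FPKM), while Fn1 was high in mouse 2 (2.84 FPKM) and not in mouse 6 (1.08 FPKM). Dcn was highest in mouse 4, followed by mice 6 and 2 (75.0 and 70.7 FPKM), and Islr was high in mouse 6 (2.63 FPKM) and not in mouse 2 (1.63 FPKM).

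Over the 20 libraries, centred within groups, 24 of 28 pairs of the 8 stroma genes had a positive r and 5 exceeded 0.5. The closest pairs were Col1a2 with Igf2 (0.74), Igf2 with Mgp (0.67) and Col1a2 with Mgp (0.65). All pairs share the same libraries and their depth, and no test was made. The 5 other genes closest to the mean of the 8 were Wdr63 (r = 0.905), Timp3 (0.855), Slc16a12 (0.851), Pcp4l1 (0.847) and Car12 (0.836). Without control 1, Ptgds (0.809) took the place of Car12 and the remaining 4 were the same. Those closest to Igf2 alone, listed after its relation to Ttr was seen, were Aqp1 (0.953), Slc2a12 (0.944), Lbp (0.943), Steap1 (0.943) and Pcp4l1 (0.936), the first of them on the epithelium list.

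Related genes were taken from lists of the same pathways. Of 21 other fibroblast and leptomeningeal genes tested in Hdac1 cKO against control hippocampus, 5 fell and 0 rose (3.36% of all genes were called in either direction), with a median of -0.34. They included Pcolce, an enhancer of procollagen processing, which averaged 19.8 ± 13.6 FPKM in the 4 controls and 3.12 ± 1.09 FPKM in the 5 Hdac1 cKO mice (SD), and the sulfate transporter Slc13a4, at 8.67 ± 5.4 and 1.08 ± 0.511 FPKM. Ptgds, the lipocalin-type prostaglandin D synthase of the leptomeninges, fell from 2112 ± 570 to 1041 ± 186 FPKM. Slc6a13 fell by 0.71 on the log2 scale, and Serping1, the gene of the complement C1 inhibitor, from 3.94 ± 1.13 to 2.11 ± 0.352 FPKM. In compound mice 5 fell and 2 rose (4.24% of all genes were called), and in 5XFAD mice 0 fell and 2 rose (2.95% of all genes). Those 2 were Gsn, the actin-severing gelsolin, from 11.6 ± 2.74 to 22.6 ± 3.03 FPKM (SD, n = 6; limma adjusted p = 0.00615), and Serping1, which fell in Hdac1 cKO, to 7.24 ± 1.12 FPKM. Against 5XFAD mice 1, Slc6a13, fell in compound mice (-0.81; 1.28% of all genes were called). Of the 21, 2 had a slope on Ttr past adjustment, Slc13a4 (0.26) and Pcolce (0.23), and without control 1 only 1 did. The counts of falls and rises among the 21 without control 1 were 5 and 0 in Hdac1 cKO, 2 and 2 in 5XFAD and 3 and 0 in compound mice.

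Of 14 other collagen chains tested in Hdac1 cKO, 3 fell and 0 rose (3.36% of all genes were called in either direction). Col9a3, a chain of type IX, fell from 14.3 ± 8.85 to 2.06 ± 0.521 FPKM. Col8a1 and Col8a2, the chains of the short type VIII collagen, fell from 4.46 ± 3.06 to 0.306 ± 0.236 and from 1.32 ± 1.10 to 0.0767 ± 0.10 FPKM. Of these, Col8a1 (slope 0.25) and Col9a3 (0.24) rose with Ttr at an adjusted p under 0.05, and the other 12 chains tested did not pass. In compound mice Col8a1 and Col8a2 fell and Col16a1 rose, from 1.04 ± 0.425 to 2.47 ± 1.27 FPKM, among 15 tested (4.24% of all genes were called). In 5XFAD 0 of 15 were called (2.95% of all genes). Of 18 collagen processing and crosslinking enzymes 0 were called in Hdac1 cKO, 2 rose in 5XFAD and 1 rose and 1 fell in compound mice. Of all genes 3.36%, 2.95% and 4.24% were called. P4ha3, a prolyl hydroxylase subunit, rose in 5XFAD and compound mice, from 0.525 ± 0.363 FPKM in control to 1.55 ± 0.554 and 2.61 ± 1.30 FPKM. Without control 1, 1 enzyme rose and 1 fell in Hdac1 cKO, 2 rose in 5XFAD, and 1 rose and 3 fell in compound mice. With log2 Ttr as a covariate 1, 3 and 1 of the enzymes were called. In these fits 695 of 14265, 417 of 14402 and 707 of 14348 genes were called in either direction. Of 8 other small leucine-rich proteoglycans Prelp and Fmod fell in Hdac1 cKO, by 0.78 and 0.66 (2.87% of all genes were called lower). In the other hippocampal comparisons 0 of 8 were called. Without control 1 the proteoglycans called lower numbered 2 in Hdac1 cKO, 0 in 5XFAD and 1 in compound mice. With log2 Ttr as a covariate the calls in Hdac1 cKO were 0 of the other collagen chains, 0 of the small leucine-rich proteoglycans and 2 of the other fibroblast and leptomeningeal genes, and after adjustment over all genes they were 0 in each of these lists. Without control 1 the other collagen chains called lower numbered 4 in Hdac1 cKO, 3 in 5XFAD and 3 in compound mice.

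**Figure D4:**
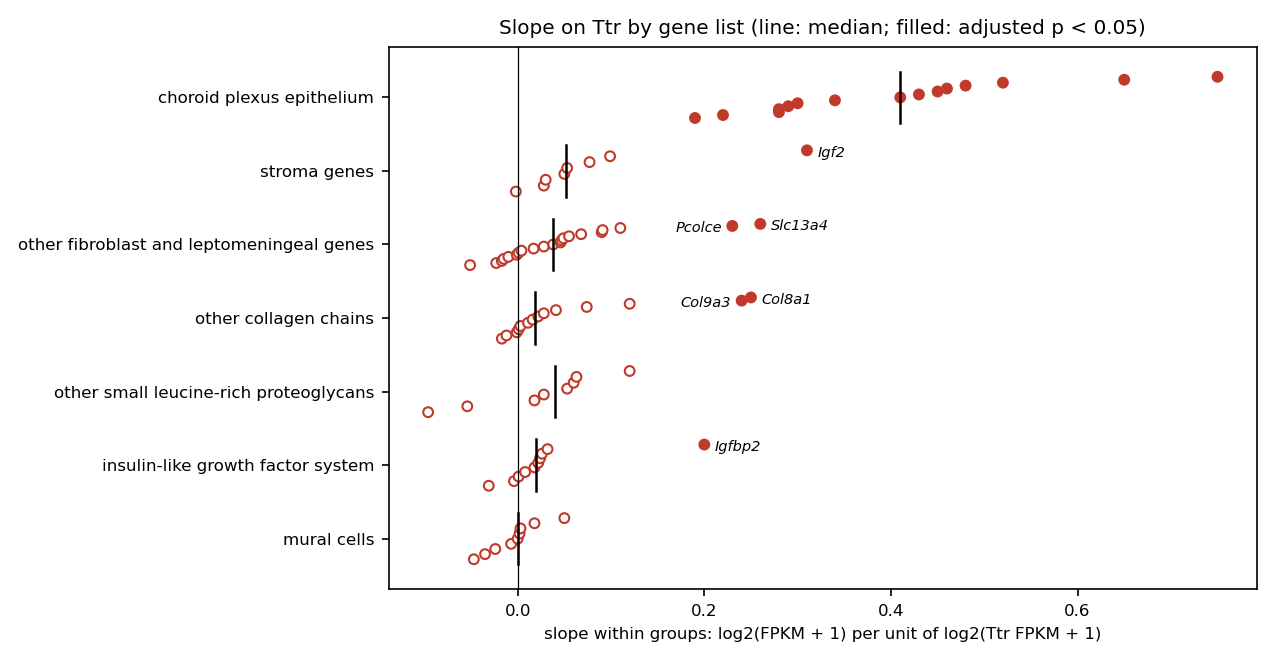
Slopes on Ttr within groups, in log2(FPKM + 1) per unit of log2(Ttr FPKM + 1), for 7 gene lists; each point is a gene, the line the median of its list, and filled points had an adjusted p under 0.05. All 15 epithelium genes are filled, and Igf2 is the 1 stroma gene that lies among them.

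Of 10 genes of the insulin-like growth factor system other than Igf2, the carrier Igfbp2 fell in Hdac1 cKO, from 26.1 ± 12.5 to 6.19 ± 1.2 FPKM, and in compound mice to 8.03 ± 4.75 FPKM (limma adjusted p = 0.133 and 0.299). With log2 Ttr as a covariate 0 of the 10 were called in Hdac1 cKO (695 of 14265 genes were), against 1 without it (3.36% of all genes were called). Without control 1 the counts called lower were 1 in Hdac1 cKO, 1 in 5XFAD and 1 in compound mice. Those called higher were 0, 2 and 2. Igfbp2 also rose with Ttr (slope 0.20, limma adjusted p = 0.00137). Igf1 and Igfbp5 rose in 5XFAD, from 2.14 ± 0.659 to 5.67 ± 1.86 FPKM and from 14.0 ± 1.79 to 24.3 ± 4.35 FPKM, and in compound mice to 6.98 ± 1.96 and 31.5 ± 9.79 FPKM. In these groups 6 of 8 microglia markers also rose, with medians of 1.02 in 5XFAD and 1.23 in compound mice (2.95% and 4.24% of all genes were called). Their summed level was 231 to 292 FPKM in control, 684 to 962 in 5XFAD and 905 to 1807 FPKM in compound libraries. Of 8 astrocyte markers 1 rose in 5XFAD and 2 in compound mice, among them Gfap by 1.90 and 2.10 on the log2 scale. Without control 1 the microglia markers called higher numbered 6 and 7, and the astrocyte markers 1 and 2. The part of these cells in the rises of Igf1, Igfbp5, Gsn and Serping1 was not tested. Markers of mural cells, the pericytes and smooth muscle of vessels, had 0 of 9 called in every hippocampal comparison, and their summed level was 55.6 to 91.4 FPKM over the 20 libraries. Of 9 brain endothelium markers tested, 1 was called lower in Hdac1 cKO, 1 in 5XFAD and 2 in compound mice against controls. Against 5XFAD mice 0 were called in compound mice. The medians were -0.15, 0.010, -0.33 and -0.35 in that order, and 0 passed adjustment. Slco1c1 was at -0.89, -0.73 and -1.16 against controls, and Pecam1 at -0.64 in compound mice. Without control 1 the endothelium counts were 1, 1 and 1. Of 9 markers of the ependyma, the ciliated lining of the ventricles, 9 fell in Hdac1 cKO, 6 in 5XFAD and 3 in compound mice. Their medians were -1.31, -0.78 and -0.82, and 1, 0 and 0 passed adjustment. Of all genes 2.87%, 1.23% and 2.02% were called lower in these comparisons, the background for the endothelium list too. Without control 1 the ependyma counts were 9, 7 and 6, with medians of -1.51, -1.27 and -1.17. Their summed level was 158 to 385 FPKM in control, 85.9 to 138 in Hdac1 cKO, 108 to 201 in 5XFAD and 114 to 249 FPKM in compound libraries. The part of ependymal or endothelial cells in the changes of stroma genes was not tested.

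All 10 stroma genes were tested in GFAP+ nuclei. These libraries were made with another method and from another tissue and RNA source, so levels are set side by side without a test. Col1a1 was at 17.0, 15.5 and 15.2 FPKM in controls 1, 3 and 4 and at 11.2, 12.6, 18.1 and 17.6 FPKM in Hdac1 cKO mice 1 to 4, where no hippocampal library passed 0.595 FPKM. Col1a2 was at 3.77 to 8.92 FPKM, and Col3a1 at 0.106 to 1.07 FPKM. Dcn, at 2.47 to 10.9 FPKM, lay below every hippocampal library, and Ogn, at 0.989 to 3.40 FPKM, and Lum, at 0.103 to 2.16 FPKM, were low. Mgp ranged from 27.1 to 65.1 FPKM, Igf2 from 6.51 to 14.3, Islr from 2.90 to 10.1 and Fn1 from 1.45 to 3.42 FPKM. Ttr was at 10.7, 6.40 and 131 FPKM in the control and 162, 95.9, 246 and 200 FPKM in the cKO nuclei (log2 fold change 2.89, SE 1.11, limma p = 0.046, adjusted p = 0.984; exact permutation p = 0.0571). Ttr was called higher, as was Folr1 (1.04), out of 11 epithelium genes tested (2.58% of all genes were called in either direction). Of the 11, 10 had a positive log2 fold change and 0 passed adjustment. The part of these transcripts in the levels of stroma genes there was not tested.

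**Figure D5:**
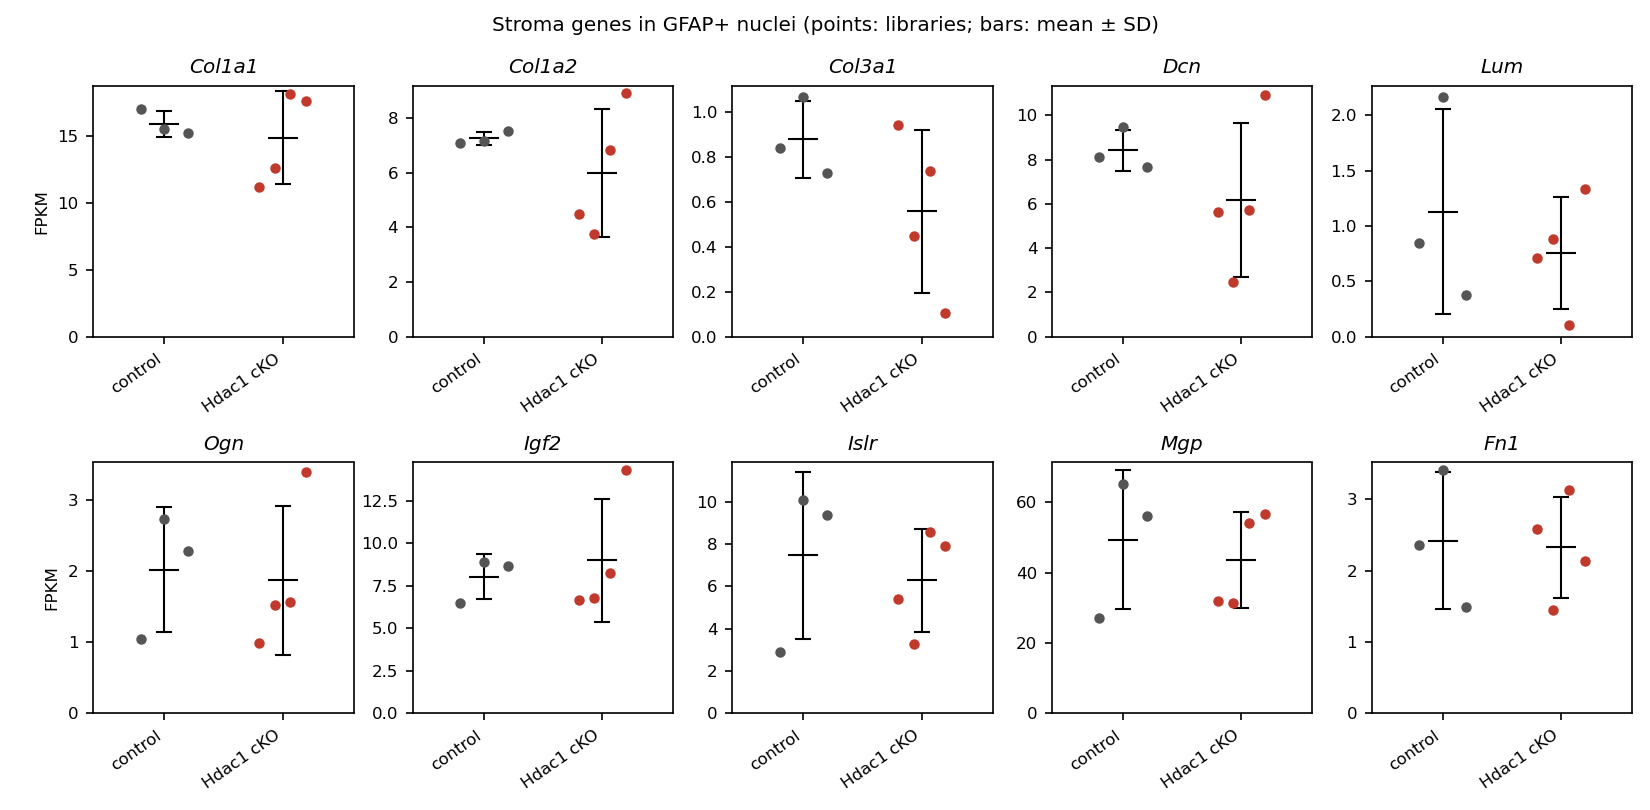
FPKM of the 10 stroma genes in GFAP+ nuclei of 3 control and 4 Hdac1 cKO mice; points are libraries and bars the mean ± SD, each panel with its own linear axis from 0. The groups overlap in every panel.

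Between control and Hdac1 cKO nuclei 0 of the 10 stroma genes were called (1.34% of all genes were called lower and 0.0133% passed adjustment), and by the unadjusted limma p 0 of 10 passed 0.05, where 4.7% of all genes did. The median log2 fold change was -0.14. The largest was that of Dcn, -0.52 (95% interval -1.28 to 0.24), which passed without Hdac1 cKO nuclei 4 (-0.81). Igf2, the stroma gene that differed most from controls in the hippocampus, had a log2 fold change of 0.095 (95% interval -0.48 to 0.67). Of 18 matrix enzymes Crtap, a partner of a collagen prolyl hydroxylase, and Loxl1, a crosslinking oxidase, fell by 0.60 and 0.70, and of 23 other collagen chains Col2a1 rose from 0.726 ± 0.634 to 2.11 ± 0.930 FPKM (2.58% of all genes were called). Astrocyte markers summed to 2872 to 3524 FPKM in these nuclei against 943 to 1285 FPKM in hippocampus. Mural markers were also present, at 283 to 460 FPKM summed, with the pericyte gene Pdgfrb at 70.8 to 108 FPKM, as was Slc6a13 at 4.69 to 25.1 FPKM. Of 10 brain endothelium markers 1, Cldn5, was called lower in Hdac1 cKO nuclei (-0.68, limma adjusted p = 0.984). Whether nuclei other than those of astrocytes carried the stroma transcripts was not tested.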

How the data were processed

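RNA-seq of 20 hippocampal and 7 GFAP+ nuclei libraries was used, grouped by the labels. Of 34 samples listed, 6 of ChIP-seq and 1 control of the nuclei were not used here. The authors deposited FPKM values for 23951 genes per library. Per the study's methods, 3′ Digital Gene Expression was the library type for hippocampus and SMART-Seq v4 that for nuclei, reads were aligned with TopHat and FPKM computed with Cufflinks (2.0.0 per the submitters' processing notes) on mm9. Nuclei were sorted by flow cytometry on GFAP. Fragment counts are not given, so depth was estimated from the smallest steps between values, and no counting interval was computed. Whether mice were processed together is not given in the sources used here, and the labels name the source of control and Hdac1 cKO hippocampus differently from that of 5XFAD and compound hippocampus. In comparisons of 5XFAD or compound mice with controls, any difference in processing cannot be told apart from an effect of 5XFAD.

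Values were taken as log2(FPKM + 1). Genes averaging 0.5 FPKM or more in the libraries compared were tested without further scaling by limma (version 3.58.1, R version 4.3.3), using its trend and robust options. A call needed 1.5-fold and p under 0.05, as in the study; Benjamini-Hochberg adjustment covered all genes tested. The interaction and the slope on Ttr, fitted with group terms over the 20 hippocampal libraries, were called at an adjusted p under 0.05. Fold changes on this scale understate those of low genes. Exact permutation tests were two-sided; correlations used 100000 permutations within groups. Means are given ± SD, and p-values measure the spread between mice. Tests on simulated data with 200 changed genes recovered 100% of them by the call thresholds for Hdac1 cKO, 97.5% for 5XFAD, 99.5% and 99% for compound mice against control and 5XFAD mice, 98% for the nuclei, 91.5% for the interaction and 97.5% for the slope. In the same simulations 161 to 361 unchanged genes were called in the group comparisons by the unadjusted thresholds, and 6 to 18 after adjustment. Each changed gene was shifted by 1.5 on the log2 scale, or given a set slope on Ttr, with independent normal noise. Only genes above a level that several stroma genes did not reach were changed. Most stroma genes also moved by less, so these rates do not give the power to find their changes.

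The stroma genes and all lists were chosen with earlier results of these data known. Genes named besides them were those called in the 5 matrix, fibroblast and growth factor lists, up to 4 per list and comparison. To these were added the 2 most abundant markers of a cell type and the 5 genes closest to the mean of the stroma genes. Others, among them Gfap, Pdgfrb, Folr1, Pecam1, Cldn5 and those marked so, were chosen after their values were seen, or serve as checks. Positions are from the GENCODE annotation of NCBIM37 (mm9) and promoters from RefSeq on GRCm38.p6. Alternatives were a pseudocount of 0.1, no filter or one at 1 FPKM, quantile normalization, median scaling, limma without trend and robust options, the ratio of mean FPKM, a replicate block, Ttr as a covariate, 1 fit for all hippocampal groups, calls after adjustment, and each library left out. Python 3.11.15 with numpy 2.4.6, pandas 2.3.3 and scipy 1.17.1 was used for the other steps.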

Additional observations from a re-analysis of the deposited data

Results flagged for a closer look

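Among 50 pairs of a stroma gene and a group of 4 or more libraries, 6 held a value set apart from the rest of its group by the 95% limit of Dixon's test, which chance alone would pass in about 1 of 20 groups. Col1a2 was at 0.967 FPKM in Hdac1 cKO mouse 2, above the other 4 mice at 0.632 to 0.660 FPKM. Ogn was at 12.9 FPKM in control 3 and at 18.5 FPKM in 5XFAD mouse 6, each the highest of its group. Igf2 was at 33.0 FPKM in compound mouse 1, which also had the most Ttr of its group, 13910 FPKM. Fn1 was highest in 5XFAD mouse 2, at 2.84 FPKM, and lowest in compound mouse 3, at 0.779 FPKM.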

How the results depend on the processing

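The counts of stroma genes called were small, and no hippocampal or nuclear call held after adjustment over all genes (0 of 8 in Hdac1 cKO and 0 of 8 in compound mice against controls), except that Igf2 and Islr passed in Hdac1 cKO without control 1, the lowest control for both. The call of Igf2 on the slope on Ttr held in every alternative, and the interaction stayed at 0. With Ttr as a covariate the counts were 0 in Hdac1 cKO and 0 in compound mice against controls, where Ogn was at -1.25 against -1.17. In these fits 695 of 14265 and 707 of 14348 genes were called. With a pseudocount of 0.1 the counts of stroma genes were 3 in Hdac1 cKO (Ogn added), 1 in 5XFAD (Islr) and 0 in compound mice against controls (Ogn at -1.52). The genes called rose there as well, to 657 of 14265, 641 of 14402 and 769 of 14348, from 480, 425 and 608 in the main fits. With the ratio of mean FPKM 3 stroma genes were called in Hdac1 cKO (Ogn added) and 1 in 5XFAD, where 700 of 14265 and 688 of 14402 genes were called. Limma without trend and robust options called 3 stroma genes in Hdac1 cKO (Mgp added), and 487 of 14265 genes. With all groups in 1 fit 1 stroma gene (Ogn) was called in compound against 5XFAD mice, where 188 of 14326 genes were. Leaving out 1 library at a time, counts ranged from 0 to 3 in Hdac1 cKO, 0 to 2 in 5XFAD, 0 to 3 in compound against control mice, 0 to 1 against 5XFAD mice and 0 to 1 in the nuclei. No share of all genes is given for fits that leave out a library.

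Of 1211 alternative values of single stroma genes, 1087 kept their direction and side of the threshold, 13 lost and 23 gained a call, and 88 changed sign; the cause was not tested. With Ttr as a covariate, values turned to 0.11 (Col1a2), 0.29 (Igf2) and 0.076 (Fn1) in Hdac1 cKO; 0.31 (Col1a2) and 0.14 (Lum) in 5XFAD; 0.18 (Col1a2), 0.026 (Dcn), 0.34 (Igf2), 0.14 (Islr) and 0.20 (Fn1) in compound against control mice; and 0.095 (Col1a2), 0.31 (Igf2), 0.092 (Mgp) and 0.014 (Fn1) against 5XFAD mice. Quantile normalization gave 0.019 and 0.004 for Fn1 in compound mice against controls and 5XFAD mice, median scaling 0.000 against controls, and the ratio of mean FPKM 0.050 for Col1a2 in 5XFAD. Leaving out 1 library at a time, the ranges that crossed 0 were, in 5XFAD, -0.20 to 0.15 (Col1a2), -0.28 to 0.13 (Lum) and -0.092 to 0.14 (Fn1); in compound mice against controls, -0.26 to 0.093 (Col1a2) and -0.13 to 0.10 (Fn1); against 5XFAD mice, -0.19 to 0.097 (Col1a2), -0.68 to 0.017 (Igf2), -0.44 to 0.045 (Mgp) and -0.10 to 0.080 (Fn1); in the nuclei, -0.21 to 0.003 (Col1a1), -0.51 to 0.090 (Lum), -0.35 to 0.085 (Ogn), -0.13 to 0.20 (Igf2), -0.62 to 0.13 (Islr), -0.52 to 0.10 (Mgp) and -0.24 to 0.18 (Fn1); for the interaction, -0.16 to 0.11 (Dcn), -0.26 to 0.14 (Lum), -0.59 to 0.057 (Ogn) and -0.024 to 0.21 (Fn1); and for the slope, -0.032 to 0.024 (Dcn) and -0.001 to 0.044 (Lum).

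Replicate numbers are shared between groups but name different mice, and same-numbered libraries did not deviate together (r from -0.11 to 0.053 over all comparisons). The fit with a replicate block called 2 stroma genes in Hdac1 cKO (Islr and Ogn, at -0.63, and not Igf2, at -1.89), 0 in 5XFAD, 1 in compound against control mice, 0 against 5XFAD mice and 0 in the nuclei. In the same order it called 499 of 14265, 476 of 14402, 593 of 14348, 204 of 14326 and 426 of 15070 genes. Under this block Col1a2 turned to 0.013 in 5XFAD and 0.053 in compound against 5XFAD mice, Islr to 0.097 and Fn1 to 0.11 in the nuclei, and the interaction to 0.013 (Dcn) and 0.070 (Lum). No other call of a stroma gene changed with the block. Col1a1 and Col3a1, at most 0.595 and 0.487 FPKM in the hippocampus, fell under the filter on low values, and the smallest difference these libraries could show for them was not tested.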
